A study of Homo sapiens with 6 samples.

Results

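The interferon-stimulated genes are the genes whose transcription rises when a cell receives interferon, the cytokine signal of viral infection. A fixed list of 39 of them was described here across 6 RNA-seq libraries of HUDEP-2, a human erythroid line immortalised at the progenitor stage. The list was chosen with earlier results of these data known. Members were found by gene name in the deposited tables. All 39 were found among the 62754 genes listed. A member was called well measured when it reached a TPM of 1 (transcripts per 1000000, a share of the library) in at least 3 libraries. On that rule 31 members were well measured and 8 were near silent. The rule for members uses names and levels, and XAF1 and IFIT1 met it through their control libraries alone.

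The series concerns the MLL1 histone methyltransferase complex and fetal hemoglobin. Cells of 1 group (n = 3) carried the lentiviral shRNA titled MEN1sh2, against the gene for menin, a subunit of that complex. Those of the other (n = 3), labelled WT, carried the Controlsh lentiviral shRNA, a non-targeting hairpin. All 6 cultures grew in StemSpan SFEM with doxycycline (1 µg per ml), dexamethasone (1e-06 M), SCF (50 ng per ml) and EPO (3 units per ml). All were under puromycin at 2 µg per ml for 48 h, from 24 h after infection, and were taken at 72 h. Both groups therefore received a lentivirus and a hairpin RNA, and cells without a virus were not analysed here. Only 1 hairpin against MEN1 was used, so its effect on menin and its effects on other transcripts cannot be told apart. The titles call the libraries biological replicates without saying how the cultures were separated, and p-values measure the spread between these samples.

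As background, type I interferons bind a receptor made of IFNAR1 and IFNAR2, whose kinases JAK1 and TYK2 phosphorylate STAT2. Phosphorylated STAT2 joins IRF9, and their complex binds the interferon-stimulated response element in the promoters of its target genes. Interferon itself is made when RNA sensors such as RIGI and IFIH1, or the DNA sensor CGAS with STING1, activate IRF3 and IRF7. Many of the targets bind viral RNA, degrade it, block membrane fusion or restrain the pathway, and some of them are also transcribed at a basal level without interferon.

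Because the response element is what many members share, it was looked up in the promoters that RefSeq gives for them (GRCh38.p14, 250 bases before to 50 after a transcription start). The table held a promoter for 30 of the 39 members, the others being IFIT2, IFITM2, IRF2, IRF3, IRF7, MX2, OAS2, OASL and USP18. Stretches around the match are printed here for members that the results turn on, 5′ to 3′ on the gene's strand, with the match in capitals and positions counted from the start site. The first 5 hold the full element, GAAA and GAAACT separated by any 2 bases, which reads on the other strand as AGTTTC and TTTC separated by any 2 bases.

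IFIT1 (chr10:89392481-89392540, plus strand, match from base -118 to -107): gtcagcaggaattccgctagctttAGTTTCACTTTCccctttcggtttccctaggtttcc

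IFIT3 (chr10:89332452-89332511, plus strand, match from base -53 to -42): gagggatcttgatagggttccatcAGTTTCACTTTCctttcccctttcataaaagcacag

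IFITM3 (chr11:320877-320936, minus strand, match from base -52 to -41): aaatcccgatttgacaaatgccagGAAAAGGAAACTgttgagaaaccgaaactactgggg

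ISG15 (chr1:1013366-1013425, plus strand, match from base -107 to -96): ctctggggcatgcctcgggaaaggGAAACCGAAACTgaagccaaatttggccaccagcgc

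HERC5 (chr4:88456968-88457027, plus strand, match from base -127 to -116): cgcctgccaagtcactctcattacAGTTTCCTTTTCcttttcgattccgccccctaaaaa

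The next 3 hold only the shorter core, GAAA and GAAA separated by any 2 bases, on either strand.

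RSAD2 (chr2:6877608-6877665, plus strand, match from base -145 to -136): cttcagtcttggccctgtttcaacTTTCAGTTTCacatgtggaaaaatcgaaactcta

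ISG20 (chr15:88638923-88638980, plus strand, match from base -69 to -60): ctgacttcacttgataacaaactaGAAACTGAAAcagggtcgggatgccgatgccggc

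IFIH1 (chr2:162318810-162318867, minus strand, match from base -159 to -150): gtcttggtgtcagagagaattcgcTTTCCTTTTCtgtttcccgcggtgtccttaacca

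IFIT1, IFIT3 and IFITM3 fell, HERC5, RSAD2, ISG20 and IFIH1 rose, and ISG15 did not pass the test. In IFITM3 a further full element, left in small letters, runs from base -35 to -24, and IFIT3 has another in the promoter of a different start site. Further matches to the core alone, not marked here, lie in the promoters of IFIT1, IFIT3, ISG15, HERC5 and IFIH1. The full element, searched on both strands, was in the promoter of 13 of the 30 members (43.3%). It was in 96 of all 35116 promoter windows (0.273%) and in 88 of 27305 genes (0.322%). The core, which every full element contains, was in 19 of 30 members (63.3%) and in 4.38% of all genes. A match is a description of the letters, not a measured binding site, and the list was drawn up from genes known to respond to interferon.

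Libraries were first checked as a whole. MEN1 (chromosome 11, 64803510 to 64811294) had a TPM of 6.29, 6.44 and 6.88 with its own shRNA and 41.2, 39.6 and 37.1 in the controls (limma log2 fold change -2.42, adjusted p 8.5e-06). Depth, inferred from the deposited coverage, was 18400000 to 35800000 read pairs per library. MEN1 shRNA replicate 1 lay nearest to the controls on the first principal component, which held 76.6% of the variance. All 8 erythroid markers were well measured, with a summed TPM of 53278 to 58976 under the MEN1 shRNA and 31587 to 37159 in the controls. That sum includes the globin gene HBB and does not show which of the markers differed. Of 22 markers of monocytes, plasmacytoid dendritic cells, lymphocytes, fibroblasts and epithelia, 16 stayed below 1 TPM in every library, 2 of them at 0 throughout (MARCO and MS4A1). Those well measured were EPCAM, LYZ, TCF4 and CD3D, of which only CD3D was higher under the MEN1 shRNA, at 4.75, 3.03 and 5.43 TPM against 0.342, 0.777 and 0.0709 TPM in the controls. COL1A1 and COL1A2 reached 2.24 and 2.02 TPM in control replicate 2 only. Summed over the 22 markers, TPM was 135 to 154 under the MEN1 shRNA and 252 to 274 in the controls, mostly from EPCAM, and the part of these cell types in the results was not tested. In bulk RNA, fewer cells of a type and less RNA per cell cannot be told apart.

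Under the MEN1 shRNA, members of the list changed in both directions. The rises were led by HERC5, IRF9, ISG20, HERC6 and RSAD2, each more than 2-fold, and the falls by USP18 and IFIT2, also more than 2-fold. IFIT1 and XAF1 fell by more than 2-fold as well, but they reached 1 TPM only in controls and so had to be lower to be tested. Of the 31 members tested, 9 rose and 10 fell at an adjusted p below 0.05 (limma on log2(TPM + 1), adjusted over all 14294 genes tested), so 61.3% passed. Over all genes tested 53.6% passed, 22.1% higher (3158 genes) and 31.5% lower (4499), so the share of members that changed was near the background. Of the 31 members, 9 (29.03%) passed with a fold change of 2 or more, against 11.9% of all genes tested. They were 5 higher and 4 lower, against 4.96% and 6.9% of all genes. With genes that reached 1 TPM in only 1 group left out on both sides, a choice made after the data were seen, 17 of 29 members passed (9 higher and 8 lower), and 7 (24.1%) did so with a fold change of 2 or more, against 10.5% of 13813 genes. Of these 7, 5 were higher (17.2%, against 4.09% of all genes) and 2 lower (6.90%, against 6.39% of all genes), so the share of 2-fold falls was near the background. Scaling also moved the split: median-of-ratios scaling gave 9 members higher and 8 lower, and 3758 genes higher and 3838 lower, and quantile normalization gave 9 and 8 members and 3731 and 3863 genes. The members' median log2 fold change was -0.12, beside -0.07 over all genes tested, and their median size was 0.49, beside 0.37. The groups did not overlap in 19 members, the same 19 that passed, and in 61.8% of all genes tested.

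**Figure D1:**
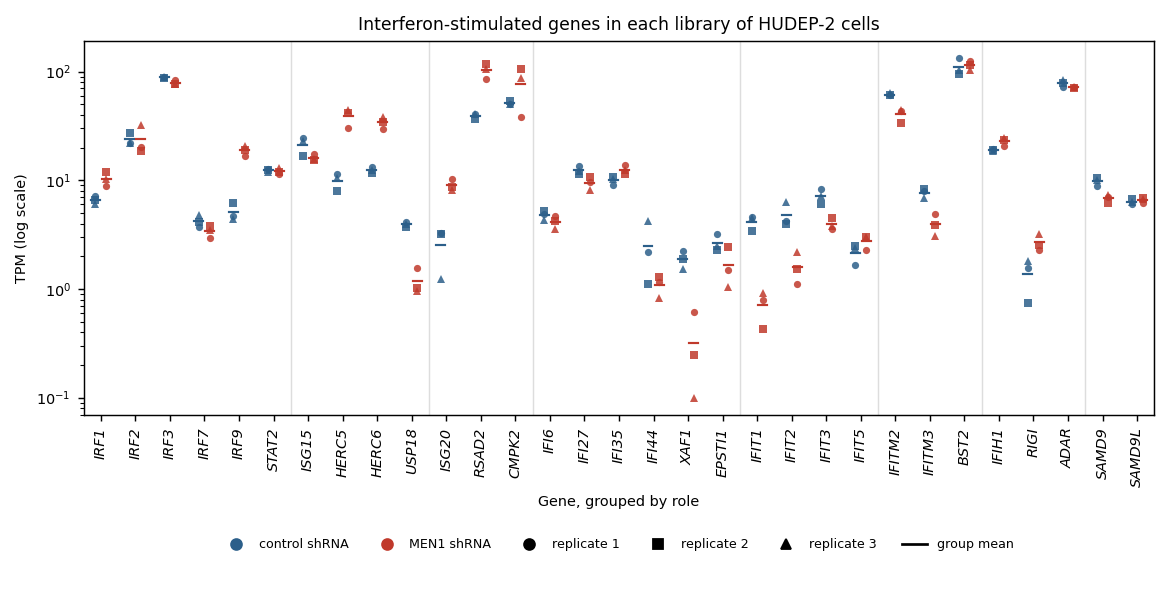
TPM on a log axis of each of the 31 well-measured interferon-stimulated genes, grouped by role with grey lines between roles. Each point is 1 library (circle, square and triangle for replicates 1, 2 and 3), blue for control shRNA and red for MEN1 shRNA, and short bars are group means. HERC5, HERC6, IRF9, ISG20 and RSAD2 sit higher in all 3 MEN1 shRNA libraries, while USP18, XAF1, IFIT1 and IFIT2 sit lower in all 3.

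**Figure D2:**
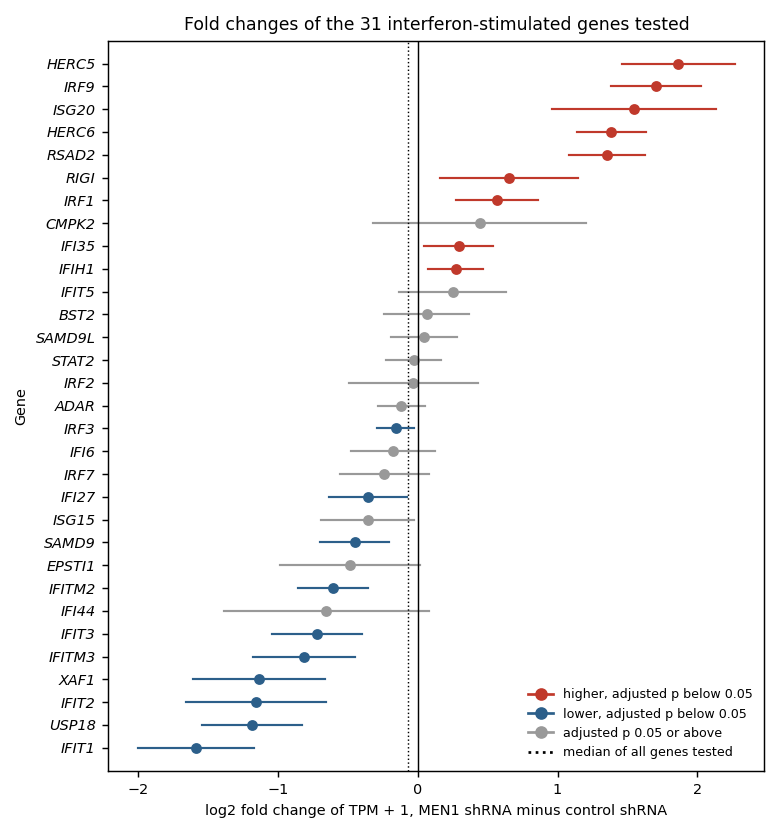
Log2 fold change of TPM + 1, MEN1 shRNA minus control shRNA, of the 31 genes tested, with 95% confidence intervals from limma. Red genes were higher and blue genes lower at an adjusted p below 0.05, grey genes did not pass, and the dotted line marks the median of all 14294 genes tested (-0.07). The list spreads from -1.59 (IFIT1) to 1.87 (HERC5).

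Transcription factors of the pathway came out with 2 of 6 higher, 1 lower and 3 that did not pass (50% called, beside 53.6% of all genes). Counts by role, here and below, cover few genes and stand beside 22.1% higher and 31.5% lower over all genes tested. IRF9 (ENSG00000213928, chromosome 14, 24161234 to 24168043), the DNA-binding subunit of the complex with STAT2, was measured at 16.8, 18.9 and 20.8 TPM under the MEN1 shRNA against 4.70, 6.24 and 4.42 TPM in the controls, in the order of replicates 1, 2 and 3, which all later values follow. Its lowest MEN1 shRNA library was well above its highest control. IRF9 rose from 5.12 ± 0.979 to 18.8 ± 2.01 TPM (SD, n = 3 each; limma log2 fold change 1.70, SE 0.138, adjusted p 7.2e-05). That fold change ranked 198 from the highest of the 14294 genes tested. A row of the tables without a name, ENSG00000259529, runs on the same strand over 76.6% of the IRF9 span, and 39.1% of the 100-base stretches of IRF9 transcripts are shared with it. Its mean TPM was 6.95 under the MEN1 shRNA against 4.95 in the controls. With that row added, the IRF9 sum was 23.4, 26.3 and 27.6 TPM under the MEN1 shRNA against 13.9, 8.43 and 7.91 TPM in the controls (limma log2 fold change 1.31, adjusted p 0.000866), an alternative chosen after the data were seen. The groups stayed apart in the sum.

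STAT2, the partner of IRF9, did not pass. Its TPM was 11.5, 11.9 and 12.8 under the MEN1 shRNA against 12.6, 12.4 and 11.9 in the controls, and the 95% interval of its log2 fold change ran from -0.23 to 0.17 (limma adjusted p 0.794). Its sign changed with the scaling.

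IRF1, an activator that is itself induced by interferon, had a TPM of 8.90, 11.9 and 10.2 under the MEN1 shRNA against 7.21, 6.57 and 6.09 in the controls. The groups did not overlap, and the rise passed the test (limma log2 fold change 0.57, SE 0.125, adjusted p 0.00632). An antisense row, IRF1-AS1, covers 70.7% of the IRF1 span. The library preparation was directional, but whether the quantification used strand is not given. A part of IRF1-AS1 reads in the IRF1 row was therefore not tested. IRF2, which competes with IRF1 for the same sites, had group means of 23.8 ± 7.42 and 23.8 ± 3.13 TPM (limma adjusted p 0.905). Its libraries ranged widely, with 32.3 TPM in MEN1 shRNA replicate 3 against 18.7 in replicate 2, and its sign changed with the scaling. Neither group of IRF2 was above the other.

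Of the 2 factors that switch on interferon genes themselves, 1 passed. IRF3, the latent factor activated by the sensors, had a TPM of 83.0, 77.4 and 77.3 under the MEN1 shRNA against 89.5, 86.6 and 89.7 in the controls. Its small fall passed the test (limma log2 fold change -0.16, SE 0.0569, adjusted p 0.0460), but every scaling of the libraries other than the deposited TPM ended the call, with adjusted p of 0.0969 on FPKM and 0.213 to 0.353 on the other 3. It was also lost without 5 of the 6 libraries in turn (adjusted p 0.0737 to 0.129), the exception being MEN1 shRNA replicate 1. IRF7, which amplifies the interferon alpha response, was at 2.96, 3.81 and 3.50 TPM under the MEN1 shRNA against 3.72, 4.14 and 4.81 TPM in the controls and did not pass (limma log2 fold change -0.24, adjusted p 0.182).

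The ISG15 system, in which a ubiquitin-like protein is attached to others and removed again, moved in both directions. HERC5 (ENSG00000138646, chromosome 4, 88457119 to 88506163), the main ligase that attaches ISG15 in human cells, had a TPM of 30.4, 41.7 and 44.6 under the MEN1 shRNA against 11.4, 7.93 and 10.4 in the controls. MEN1 shRNA replicate 1 was the lowest of its group and still more than 2 times the highest control. HERC5 rose from 9.90 ± 1.78 to 38.9 ± 7.48 TPM (limma log2 fold change 1.87, SE 0.172, adjusted p 0.000115), the highest fold change in the list. HERC6 (ENSG00000138642, chromosome 4, 88378739 to 88443097), a related ligase that lies next to it, had a TPM of 29.9, 34.5 and 38.2 under the MEN1 shRNA against 13.4, 11.6 and 12.4 in the controls (limma log2 fold change 1.38, SE 0.106, adjusted p 5.8e-05). Both genes were expressed in the controls and were above every control in all 3 MEN1 shRNA libraries.

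USP18 (ENSG00000184979, chromosome 22, 18150118 to 18177397), which removes ISG15 and holds back signalling at IFNAR2, went the other way. Its TPM was 1.57, 1.01 and 0.968 under the MEN1 shRNA against 4.10, 3.72 and 3.99 in the controls, which leaves a wide gap between the groups. USP18 fell from 3.94 ± 0.194 to 1.18 ± 0.338 TPM (limma log2 fold change -1.19, SE 0.153, adjusted p 0.000481), with a mean coverage of 1.13 to 2.56 reads per base in the lower group. Of its 100-base stretches 15.4% are shared with USP41, so the division of reads between these genes is uncertain. ISG15 itself was at 17.4, 15.3 and 15.8 TPM under the MEN1 shRNA against 24.4, 16.6 and 22.9 TPM in the controls, where replicate 2 lay within the range of the other group. It did not pass (limma log2 fold change -0.36, SE 0.142, adjusted p 0.0653), but did without control replicate 2 (limma log2 fold change -0.52, adjusted p 0.00551).

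Of 3 genes acting on nucleotides and RNA, 2 rose (66.7%, beside 22.1% of all genes tested). RSAD2 (ENSG00000134321, chromosome 2, 6865557 to 6898239) encodes viperin, which makes a chain-terminating nucleotide. Its TPM was 85.4, 118 and 106 under the MEN1 shRNA against 40.4, 36.9 and 40.8 in the controls. The controls were tight and all far below the other group, and RSAD2 rose from 39.4 ± 2.15 to 103 ± 16.5 TPM (limma log2 fold change 1.35, SE 0.117, adjusted p 8.8e-05). CMPK2 (ENSG00000134326, chromosome 2, 6840570 to 6866635), a mitochondrial nucleotide kinase, is its neighbour on the opposite strand, and the ends of the rows overlap by 1079 bases. CMPK2 had a TPM of 38.1, 105 and 86.8 under the MEN1 shRNA against 50.4, 53.6 and 50.4 in the controls. Replicate 1 of the MEN1 shRNA group was below every control and replicates 2 and 3 were above them, and the difference did not pass (limma log2 fold change 0.44, SE 0.327, adjusted p 0.291). Once that library was left out, the CMPK2 log2 fold change was 0.88 (limma adjusted p 0.000419). Without MEN1 shRNA replicate 2 it was 0.16 (0.701), and without replicate 3 0.29 (0.549).

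ISG20 (ENSG00000172183, chromosome 15, 88635670 to 88656483), an exonuclease that degrades single-stranded RNA, had a TPM of 10.2, 8.65 and 8.14 under the MEN1 shRNA against 3.24, 3.18 and 1.24 in the controls. Control replicate 3 was the lowest by far, and the groups did not overlap. The rise was from 2.55 ± 1.14 to 8.99 ± 1.06 TPM (limma log2 fold change 1.55, SE 0.251, adjusted p 0.00147).

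Of the IFIT family, RNA-binding proteins that block translation of foreign transcripts, IFIT2 and IFIT3 fell and IFIT5 did not pass. IFIT1 fell as well, but it reached 1 TPM only in controls and so had to be lower to be tested. Counted with it, 3 of 4 fell (75%, beside 31.5% of all genes tested). IFIT1, which recognises RNA caps that lack a methyl group, had a TPM of 0.794, 0.428 and 0.926 under the MEN1 shRNA against 4.59, 3.39 and 4.48 in the controls. It was below 1 TPM in every MEN1 shRNA library and well measured in every control. The fall was from 4.15 ± 0.663 to 0.716 ± 0.258 TPM (limma log2 fold change -1.59, SE 0.177, adjusted p 0.000254), with a mean coverage of 1.49 to 2.57 reads per base in the lower group. IFIT2, a partner of IFIT1 and IFIT3 in 1 complex, had a TPM of 1.10, 1.54 and 2.18 under the MEN1 shRNA against 4.19, 3.94 and 6.35 in the controls (limma log2 fold change -1.16, SE 0.215, adjusted p 0.00283). IFIT3, which stabilises IFIT1, was at 3.57, 4.49 and 3.82 TPM under the MEN1 shRNA against 8.26, 6.10 and 7.19 TPM in the controls (limma log2 fold change -0.72, SE 0.138, adjusted p 0.00334). The groups of all 3 genes were apart.

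IFIT5, a family member that binds RNA on its own, did not pass. Its TPM was 2.26, 3.00 and 2.99 under the MEN1 shRNA against 1.65, 2.46 and 2.38 in the controls, with overlap between the groups (limma log2 fold change 0.25, SE 0.165, adjusted p 0.243). The interval of its log2 fold change, -0.14 to 0.63, does not reach the fold changes of the other 3, and the difference between the genes was not tested. The 4 genes lie in a row on the plus strand of chromosome 10, from 89283694 to 89421605. LIPA, which encodes lysosomal acid lipase, covers IFIT2, IFIT3 and IFIT1 on the opposite strand in these tables and had a mean TPM of 32.3 under the MEN1 shRNA against 49.0 in the controls. Whether the quantification used strand is not given in the sources used here, so a part of LIPA reads in the IFIT rows was not tested.

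**Figure D3:**
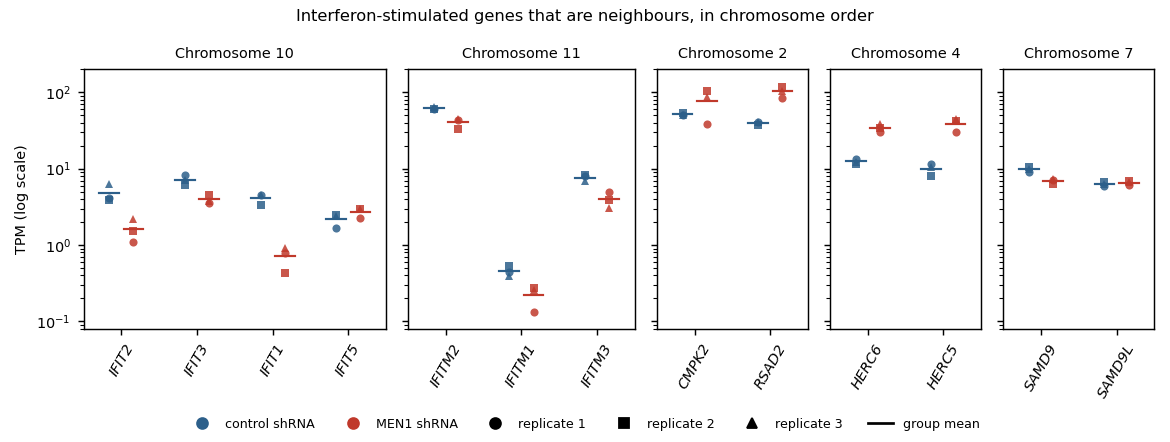
TPM on a log axis of members that lie next to each other, in chromosome order within each panel. Each point is 1 library (circle, square and triangle for replicates 1, 2 and 3), blue for control shRNA and red for MEN1 shRNA, and short bars are group means. IFIT2, IFIT3 and IFIT1 are lower in all 3 MEN1 shRNA libraries and IFIT5 is not, HERC6 and HERC5 are higher together, and SAMD9 is lower while SAMD9L is not.

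Both tested members of the IFITM family, small membrane proteins that block fusion of viruses with the cell, fell. IFITM2 had a TPM of 43.1, 33.5 and 44.5 under the MEN1 shRNA against 60.8, 60.3 and 63.3 in the controls (limma log2 fold change -0.61, SE 0.108, adjusted p 0.00228). IFITM3 had a TPM of 4.93, 3.89 and 3.10 under the MEN1 shRNA against 7.91, 8.23 and 6.84 in the controls (limma log2 fold change -0.81, SE 0.156, adjusted p 0.00329). Every MEN1 shRNA library was below every control for both genes. IFITM1 reached at most 0.538 TPM and was not tested alone. An unnamed row on the same strand, ENSG00000288681, covers all of IFITM1 and 990 bases of IFITM2. Its mean TPM was 2.76 under the MEN1 shRNA against 4.93 in the controls, beside 0.223 and 0.459 for IFITM1. The sum of the pair, chosen after the data were seen, was 2.83, 2.98 and 3.14 TPM under the MEN1 shRNA against 5.15, 6.17 and 4.84 TPM in the controls (limma log2 fold change -0.68, adjusted p 0.00274). Most of that sum came from the unnamed row, so a change of IFITM1 itself was not tested. The family shares sequence, with 18.2% of the 100-base stretches of IFITM2 and 27.5% of those of IFITM1 found in another gene, so the split among these genes is uncertain.

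BST2, or tetherin, which holds budding virions at the cell surface, had the highest mean TPM of the list in both groups, with 114 ± 10.0 TPM under the MEN1 shRNA against 110.4 ± 20.9 TPM in the controls. In MEN1 shRNA replicates 2 and 3 RSAD2 was above it. The groups of BST2 overlapped and the difference did not pass (limma log2 fold change 0.06, 95% interval -0.24 to 0.37, adjusted p 0.715). The promoters of BST2 and ISG15 hold the full element, and neither gene passed.

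Both cytosolic RNA sensors rose, by less than 2-fold. RIGI had a TPM of 2.30, 2.53 and 3.21 under the MEN1 shRNA against 1.57, 0.747 and 1.81 in the controls (limma log2 fold change 0.65, SE 0.213, adjusted p 0.0334). The groups were apart, but the call was lost without MEN1 shRNA replicate 2 or 3, or control replicate 1 or 2 (adjusted p 0.0508 to 0.103). It held with an overlapping unnamed row on the same strand added (limma log2 fold change 0.48, adjusted p 0.0177). IFIH1, the sensor of long double-stranded RNA, had a TPM of 20.8, 23.7 and 24.5 under the MEN1 shRNA against 19.3, 18.9 and 18.4 in the controls (limma log2 fold change 0.27, SE 0.0833, adjusted p 0.0271). Its rise was small, and the call was lost when any library other than MEN1 shRNA replicate 1 was left out (adjusted p 0.0530 to 0.0899). ADAR, an editing enzyme that keeps the cell's own double-stranded RNA from being sensed, stood at 71.7 ± 0.923 and 78.1 ± 6.47 TPM and did not pass (limma log2 fold change -0.12, adjusted p 0.202).

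SAMD9 and SAMD9L are neighbouring paralogs on chromosome 7 that restrict viruses and cell growth. SAMD9 had a TPM of 7.08, 6.23 and 7.34 under the MEN1 shRNA against 8.93, 10.4 and 9.98 in the controls (limma log2 fold change -0.45, SE 0.106, adjusted p 0.00846). All 3 of its MEN1 shRNA libraries were below all controls. SAMD9L had group means of 6.58 ± 0.397 and 6.35 ± 0.368 TPM and did not pass (limma log2 fold change 0.04, 95% interval -0.19 to 0.28, adjusted p 0.737). No 100-base stretch of either was shared with another gene.

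Among the 6 other induced genes tested, 1 rose and 2 fell (50% called, beside 53.6% of all genes). The falls include XAF1, which reached 1 TPM only in controls and so had to be lower to be tested. XAF1, an antagonist of the apoptosis inhibitor XIAP, had a TPM of 0.609, 0.248 and 0.0997 under the MEN1 shRNA against 2.24, 1.87 and 1.53 in the controls (limma log2 fold change -1.14, SE 0.202, adjusted p 0.00227). It was below 1 TPM in every MEN1 shRNA library, at a mean coverage of 0.101 to 0.814 reads per base. IFI27, a mitochondrial and nuclear-envelope protein, was at 9.71, 10.7 and 8.13 TPM under the MEN1 shRNA against 13.5, 11.5 and 12.3 TPM in the controls (limma log2 fold change -0.36, SE 0.119, adjusted p 0.0355). That call was lost on FPKM and under the other 3 scalings (adjusted p 0.0543 to 0.178), and without MEN1 shRNA replicate 1 or 3 or control replicate 1 or 3 (0.0582 to 0.110). IFI35, a partner of NMI, was at 13.7, 11.3 and 12.6 TPM under the MEN1 shRNA against 9.07, 10.8 and 10.2 TPM in the controls (limma log2 fold change 0.29, SE 0.106, adjusted p 0.0491). Its call was lost without any library other than MEN1 shRNA replicate 2 (adjusted p 0.0559 to 0.143).

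IFI6, IFI44 and EPSTI1 did not pass. Their group means were 4.15, 1.09 and 1.65 TPM under the MEN1 shRNA against 4.81, 2.50 and 2.65 TPM in the controls. Each promoter of these 3 genes holds the full element. The log2 fold changes were -0.18, -0.65 and -0.49 (limma adjusted p 0.289, 0.117 and 0.0921). IFI44 had controls as far apart as 2.17, 1.11 and 4.22 TPM and passed without control replicate 2 (limma log2 fold change -0.97, adjusted p 0.0206), whereas without control replicate 3 the value was -0.32 (0.317). EPSTI1 passed without MEN1 shRNA replicate 2 (limma log2 fold change -0.68, adjusted p 0.0259), and without MEN1 shRNA replicate 3 its value was -0.32 (0.248).

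The 8 near-silent members were IFI44L, IFITM1, MX1, MX2, OAS1, OAS2, OAS3 and OASL. They include both MX GTPases, which trap viral nucleocapsids, and all 4 members of the OAS family, most of which make oligoadenylates in response to double-stranded RNA. MX2 was listed at 0 in every library, and MX1, IFI44L and OAS2 reached at most 0.0879, 0.0391 and 0.0389 TPM. OAS1 was listed at 0 in all 3 controls and at 0.262, 0.0450 and 0.176 TPM under the MEN1 shRNA. OAS3 reached at most 0.635 TPM and overlapped between groups. OASL lay just outside the filter, with 1.01, 0.493 and 1.88 TPM in the controls and 0.343, 0.140 and 0.303 TPM under the MEN1 shRNA, while XAF1 and IFIT1 lay just inside it through their 3 control libraries alone. 

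Rises and falls were next set beside the promoter letters. Of the members tested that had a promoter in the table, the full element was in 1 of the 9 that rose (HERC5). It was in 4 of the 6 that fell (IFIT1, IFIT3, IFITM3 and IFI27), or 3 of 4 without IFIT1 and XAF1, and in 6 of the 10 that did not pass. For the core the counts were 4 of 9, 5 of 6 (4 of 4 without that pair) and 6 of 10. IRF9, HERC6, RIGI, IRF1 and IFI35 rose with neither form in the window. USP18, IFIT2, IFITM2 and IRF3 fell, but the table holds no promoter for them. These counts describe few genes and were not tested, and a window of 300 bases leaves out elements farther away.

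**Figure D4:**
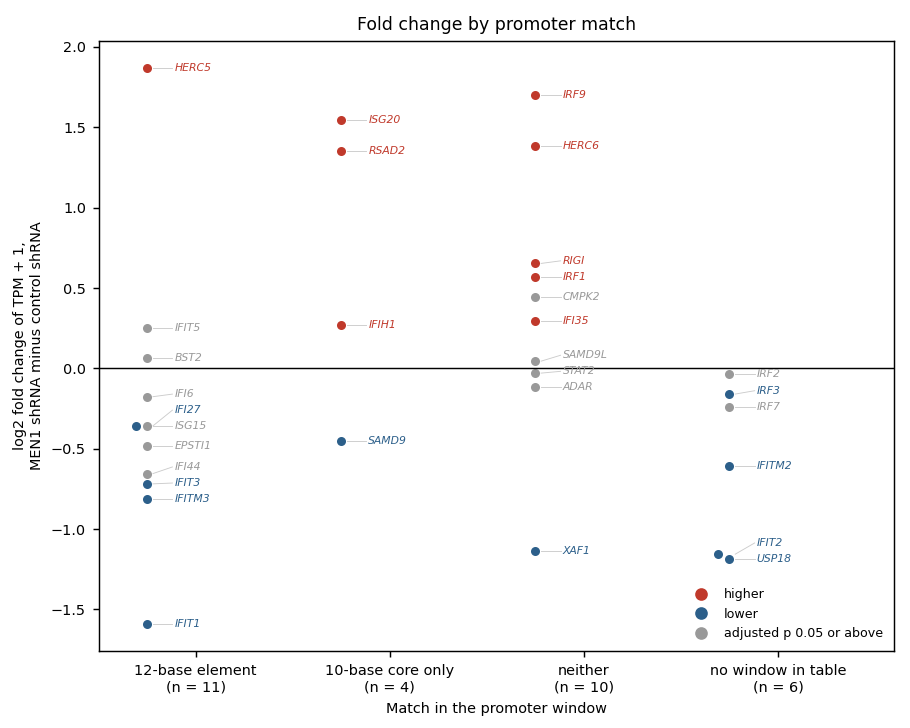
Log2 fold change of TPM + 1, MEN1 shRNA minus control shRNA, of the 31 genes tested, by what their RefSeq promoter window holds. Each point is 1 gene, red for higher and blue for lower at an adjusted p below 0.05 and grey for genes that did not pass. Of 11 genes with the 12-base element, HERC5 is the 1 that rose, 4 fell and 6 did not pass. Of 10 genes with neither form, 5 rose, 1 fell and 4 did not pass. The falls include IFIT1 and XAF1, which reached 1 TPM only in controls and so had to be lower to be tested.

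The rest of the pathway was read from lists drawn up by function, 117 genes in all, of which 68 were well measured. The lists were chosen with earlier results of these data known, so their shares are a description only. Of these, 15 rose (22.1%) and 28 fell (41.2%), beside 22.1% and 31.5% of all genes tested, and 63.2% passed, beside 53.6%. None of the 21 interferon ligand genes was well measured. Of these, 17 were listed at 0 in every library, IFNB1 and IFNG among them, and IFNL3 reached the highest level, 0.946 TPM.

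Receptors and their kinases gave 2 genes higher and 4 lower of 9 tested (66.7% called, beside 53.6% of all genes). The interferon gamma receptor fell in both chains, IFNGR2 from 45.8 ± 0.136 to 23.5 ± 0.646 TPM and IFNGR1 from 21.5 ± 1.94 to 7.51 ± 0.953 TPM (limma log2 fold changes -0.94 and -1.40, adjusted p 3.5e-05 and 7.5e-05). JAK1, the kinase shared by all interferon receptors, rose from 57.3 ± 2.87 to 90.0 ± 6.04 TPM (limma log2 fold change 0.64, adjusted p 0.000261), and IL10RB, a chain of the interferon lambda receptor, fell (limma log2 fold change -0.86, adjusted p 0.00633). For the type I receptor, IFNAR2 fell (limma log2 fold change -0.47, adjusted p 0.0182) and IFNAR1 did not pass (adjusted p 0.439).

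In the sensing branch 1 of 11 tested genes rose and 6 fell (63.6% called, beside 53.6% of all genes). STING1, the adaptor of DNA sensing, had a TPM of 10.1, 7.09 and 6.50 under the MEN1 shRNA against 43.2, 41.0 and 42.6 in the controls. The groups were far apart, and its fall was the deepest in these lists (limma log2 fold change -2.30, adjusted p 3.2e-05). TRAF3, an adaptor below both RNA and DNA sensing, fell from 8.92 ± 0.404 to 3.55 ± 0.142 TPM (limma log2 fold change -1.13, adjusted p 9.6e-05). The kinase IKBKE fell and the related TBK1 rose (limma log2 fold changes -0.63 and 0.35, adjusted p 0.00690 and 0.00541). CGAS, the enzyme that signals to STING1, fell (limma log2 fold change -0.24, adjusted p 0.0312).

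Negative regulators gave 1 gene higher and 4 lower of 12 tested (41.7% called, beside 53.6% of all genes). The phosphatase PTPN6 fell from 57.0 ± 8.02 to 24.7 ± 3.45 TPM, and PIAS4, PTPN1 and PIAS3 fell as well (limma log2 fold changes -1.17, -0.66, -0.44 and -0.54, adjusted p 0.000238, 0.000252, 0.00144 and 0.0107). PTPN11 rose (limma log2 fold change 0.39, adjusted p 0.00111). SOCS1, a feedback inhibitor induced by interferon, did not pass (adjusted p 0.340).

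Further interferon-induced genes outside the list were also split, with 11 higher and 14 lower of 36 tested (69.4% called, beside 53.6% of all genes). ZNFX1, a helicase that detects viral RNA, rose from 19.2 ± 0.941 to 43.8 ± 5.07 TPM and TRANK1 from 3.32 ± 0.222 to 9.28 ± 0.942 TPM (limma log2 fold changes 1.14 and 1.25, adjusted p 8.4e-05 and 0.000114). PNPT1, TRIM14 and PML fell (limma log2 fold changes -0.86, -0.92 and -0.67, adjusted p 9.0e-05, 0.000100 and 0.000232). The chemokine genes CXCL9 and CXCL10 were listed at 0 in all 6 libraries, and GBP1 to GBP5 reached at most 0.282 TPM.

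**Figure D5:**
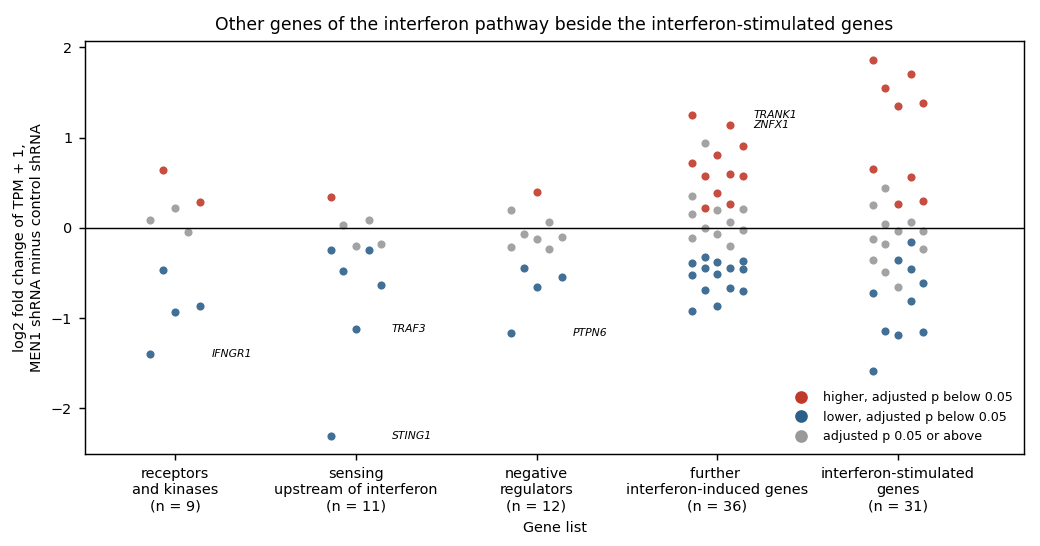
Log2 fold change of TPM + 1, MEN1 shRNA minus control shRNA, of the tested genes in 4 pathway lists and of the 31 interferon-stimulated genes, 1 point per gene. Red genes were higher and blue genes lower at an adjusted p below 0.05, and grey genes did not pass. Names mark genes of the 4 pathway lists that passed with a change of at least 2-fold: STING1 (-2.30) lies lowest, and TRANK1 (1.25) and ZNFX1 (1.14) lie highest.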

How the data were processed

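Poly(A) RNA of 6 HUDEP-2 libraries was measured, 1 table per library, with directional library preparation per the labels' protocols. The submitters' processing notes name FastQC, Trimmomatic, STAR 2.7.1a, Picard 2.20.4 and StringTie 2.0.4 on hg38. The sources used here do not give the annotation, the strand setting or the role of each tool. The deposited TPM values sum to 1000000 per library. FPKM, an alternative scale, was also deposited, per the file headers. The deposited coverage is mean reads per base, a signal not scaled for depth. In control replicate 2, a negative residue near 0 in 2 genes was set to 0. Names missing from some tables were taken from the others.

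No count model was fitted, since the values are not read counts. Depth was inferred from the ratio of coverage to FPKM in single-transcript genes, at 302 bases per read pair. TPM is a share, so abundant transcripts that rise lower all others. Testing was limited to genes at 1 TPM or above in 3 libraries, on log2(TPM + 1) with limma 3.58.1 in R 4.3.3 (2-sided, mean-variance trend, no covariate, Benjamini-Hochberg over all genes tested). Fold changes on this scale understate those of low genes. The fit was run on simulated data with independent values and 200 genes changed. Far more genes passed here (7657), so that run does not test the scaling or these calls. The named genes are all 39 members, MEN1 and, per pathway list, up to 5 called genes, ranked by adjusted p; others (IFNAR1, IFNAR2, SOCS1, CXCL9, CXCL10, GBP1 to GBP5, the ligands) were named after their values were seen. Members and lists were chosen with earlier results of these data known. All 39 identifiers overlap their GENCODE v29 (GRCh38) position. Promoter sequences are from RefSeq (GRCh38.p14). Python 3.11.15 and matplotlib 3.10.9 made the counts and figures. Some genes of the pathway lists enter the counts and are not reported here by name. Alternatives are given in the closing section.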

Additional observations from a re-analysis of the deposited data

How the results depend on the processing

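Of 579 comparisons of single members with an alternative, 509 kept direction and side of the threshold, 53 lost the call, 5 gained it and 12 changed sign. IRF9, ISG20, RSAD2, HERC5, HERC6 and USP18 kept their call under every alternative in which they were tested. So did IFIT1 and XAF1, whose entry into the test rested on the controls. Without a filter on low values RIGI (0.127), IFIH1 (0.0508), IFI35 (0.102), IFI27 (0.0895) and IRF3 (0.0601) lost it (limma adjusted p). Testing against a log2 fold change of 0.5 (treat) left 8 members, 5 higher and 3 lower (IFIT1, XAF1 and USP18), 2126 of all genes and 9 pathway genes. With a mean TPM of 5 or more, 8 of 21 members tested were higher and 6 lower, beside 2524 and 3821 of 10188 genes. IFIT1, IFIT2, USP18 and XAF1 lay below that level and were not tested. Counting GAAA and GAAA separated by 3 bases in place of the full element gave 6 of 30 members. The sign changed only in genes that did not pass: IRF2 was 0.052, 0.095 and 0.032 and STAT2 0.052, 0.10 and 0.033 with median-of-ratios scaling, quantile normalization and without globin and mitochondrial genes, and STAT2 was 0.00032 on FPKM. Leaving out each library gave 14 to 18 members, 6 to 9 higher and 8 to 11 lower, 6577 to 7542 of all genes and 35 to 43 pathway genes, with log2 fold changes of -0.265 to 0.114 for IRF2, -0.0729 to 0.00329 for STAT2, -0.0400 to 0.210 for BST2 and -2.46 to -2.38 for MEN1. The largest shift of the all-gene median from scaling was 0.078. With the replicate number as a block 16 members passed, 7 higher and 9 lower, and 7012 of all genes: IRF3 (0.0906), IFI27 (0.0610), IFI35 (0.108) and IFIH1 (0.0626) lost the call and ISG15 (0.0423) gained it (limma adjusted p). Libraries of the same number were hardly correlated in their deviations from the group means (0.0171, -0.0266 and -0.0124), and not every library correlated best with its own number, so the numbers were not taken as pairs. The second principal component (6.67% of the variance) did run in the order of the numbers in both groups. Its values were 17.34, 0.726 and -14.95 for the MEN1 shRNA and 13.52, -3.39 and -13.24 for the controls. Adding overlapping rows, chosen after seeing the data, gave 20 members.

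Low coverage limits the near-silent members and others tested, such as XAF1 and IFITM3 (as low as 0.101 and 0.538 reads per base under the MEN1 shRNA), and 3 libraries per group limit every small difference.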
